A study of Mus musculus with 20 samples.

Results

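Slc12a5 (KCC2), Slc12a2 (NKCC1), Slc12a7 (KCC4) and Car7 are 4 genes of neuronal chloride and bicarbonate handling, and they were taken from the 47729 genes of each count file by their symbols. All 4 passed the filter on low counts in every comparison. mRNA was sequenced from the cortex and hippocampus of 5 WT and 5 Ube3aOE pups at postnatal day 7 (P7), so the 20 libraries came from 10 mice, numbered 1 to 5 (WT) and 6 to 10 (Ube3aOE). All mice are labelled C57Bl/6J, and the labels name no allele beside the transgene. The Ube3aOE mice (the Ube3a+2 line of the study) carry a bacterial artificial chromosome transgene with untagged mouse Ube3a and its own flanking sequence, on top of the endogenous gene. Ube3a itself read 54.0 to 69.6 CPM (reads of the gene scaled to library size, with TMM factors) in WT cortex and 129 to 181 CPM in Ube3aOE cortex, and 57.3 to 76.8 against 143 to 194 CPM in hippocampus. Each library held 14191093 to 16752326 counts on genes. In GRCm38, Slc12a5 (ENSMUSG00000017740) lies on the plus strand at chr2:164960802-164999731, Slc12a7 (ENSMUSG00000017756) at chr13:73733094-73816754, Car7 (ENSMUSG00000031883) at chr8:104534689-104550343 and Slc12a2 (ENSMUSG00000024597) at chr18:57878678-57946821. No other annotated gene overlaps any of the 4, and the values are reads summed over all exons of a gene, without regard to isoform.

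The sign of a GABA response depends on the chloride gradient of the neuron. NKCC1, the product of Slc12a2, carries chloride into cells together with sodium and potassium, while KCC2, the neuronal product of Slc12a5, carries chloride out with potassium. As neurons mature after birth KCC2 rises relative to NKCC1, and GABA turns from a depolarizing into a hyperpolarizing transmitter, so the Slc12a5 to Slc12a2 ratio is a common transcript measure of this shift. KCC4, the product of Slc12a7, is a potassium-chloride cotransporter better known from epithelia and the inner ear. Car7 encodes cytosolic carbonic anhydrase VII of neurons, which supplies the bicarbonate that leaves through GABA-A receptors.

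Slc12a5 was the most abundant of the 4 genes, and it passed no test for region or genotype. Its level was 307, 215, 212, 254 and 278 CPM in the cortex of WT mice 1 to 5. In WT hippocampus the same mice gave 260, 260, 203, 255 and 239 CPM. In Ube3aOE mice 6 to 10 the cortex gave 290, 224, 229, 277 and 287 CPM. Their hippocampus gave 279, 259, 222, 305 and 360 CPM, of which the library of mouse 10 was the highest of all 20. The groups overlapped throughout, and 5 of 10 mice had more Slc12a5 in hippocampus than in cortex. Averaged over the genotypes, hippocampus and cortex differed by a log2 fold change of 0.03 (SE 0.09, edgeR adjusted p = 0.763), with a 95% interval of the fold from 0.904 to 1.16. The coefficient of variation between mice was 9.85% to 18.1% per group, against a counting error of 1.48% to 1.63%, so counting error was a small part of the spread between libraries of a group.

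RefSeq gives 2 transcription starts for Slc12a5 in GRCm38.p6, and KCC2 is known in forms that differ at the N terminus and arise from alternative first exons, which a count per gene adds together. The windows run from 250 bases before to 50 bases after each start. They are shown because Usf1, Usf2, Rest and Egr4, named further on, encode factors that bind DNA. Capitals mark CACGTG, the palindromic E-box to which USF factors bind. The first window is chr2:164960596-164960895 and the second chr2:164967738-164968037, both on the plus strand.
Slc12a5 window 1: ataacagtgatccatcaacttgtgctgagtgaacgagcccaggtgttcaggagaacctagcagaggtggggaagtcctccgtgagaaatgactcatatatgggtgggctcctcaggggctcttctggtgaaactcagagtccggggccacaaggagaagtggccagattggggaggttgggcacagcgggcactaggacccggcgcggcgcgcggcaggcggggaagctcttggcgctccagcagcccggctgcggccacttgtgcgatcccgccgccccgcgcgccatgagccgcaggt
Slc12a5 window 2: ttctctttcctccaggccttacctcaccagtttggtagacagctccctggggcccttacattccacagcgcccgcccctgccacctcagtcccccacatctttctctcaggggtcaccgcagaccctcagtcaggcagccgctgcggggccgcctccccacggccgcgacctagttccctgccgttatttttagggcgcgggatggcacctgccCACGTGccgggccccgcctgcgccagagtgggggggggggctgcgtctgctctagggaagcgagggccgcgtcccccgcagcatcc
The second window holds 1 match, which begins 36 bases before the start, and the first window holds none. The same letters stand in 7.15% of the 32851 RefSeq promoter windows of this length. TTCAGCACC, a stretch of the RE1 element read by REST and searched on both strands, was in 0.371% of windows and in none of Slc12a5, Slc12a7 or Car7. These matches describe the sequence only, and sites outside the windows, such as those in introns, were not searched.

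Slc12a2 was expressed at a lower level, and it passed no test either. WT cortex gave 31.9, 26.9, 30.3, 24.8 and 24.5 CPM in mice 1 to 5, and WT hippocampus 28.8, 34.0, 24.2, 25.2 and 24.5 CPM. Ube3aOE cortex gave 30.4, 28.7, 32.3, 29.1 and 29.4 CPM in mice 6 to 10, and Ube3aOE hippocampus 27.2, 27.6, 27.8, 27.8 and 28.9 CPM. The hippocampus was below the cortex in 5 of 5 Ube3aOE mice, by small amounts, while 3 of 5 WT mice had the higher value in hippocampus, mouse 5 by less than the rounding. Across the genotypes the regional log2 fold change was -0.06 (SE 0.06, edgeR adjusted p = 0.426), and the 95% interval of the fold ran from 0.875 to 1.05. Within Ube3aOE mice the value was -0.11 (SE 0.09, adjusted p = 0.386). The counting error of 4.56% to 4.90% was close to the spread between mice in Ube3aOE cortex (4.77%) and above that in Ube3aOE hippocampus (2.32%), so the closeness of those libraries is at the limit of the depth.

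**Figure D1:**
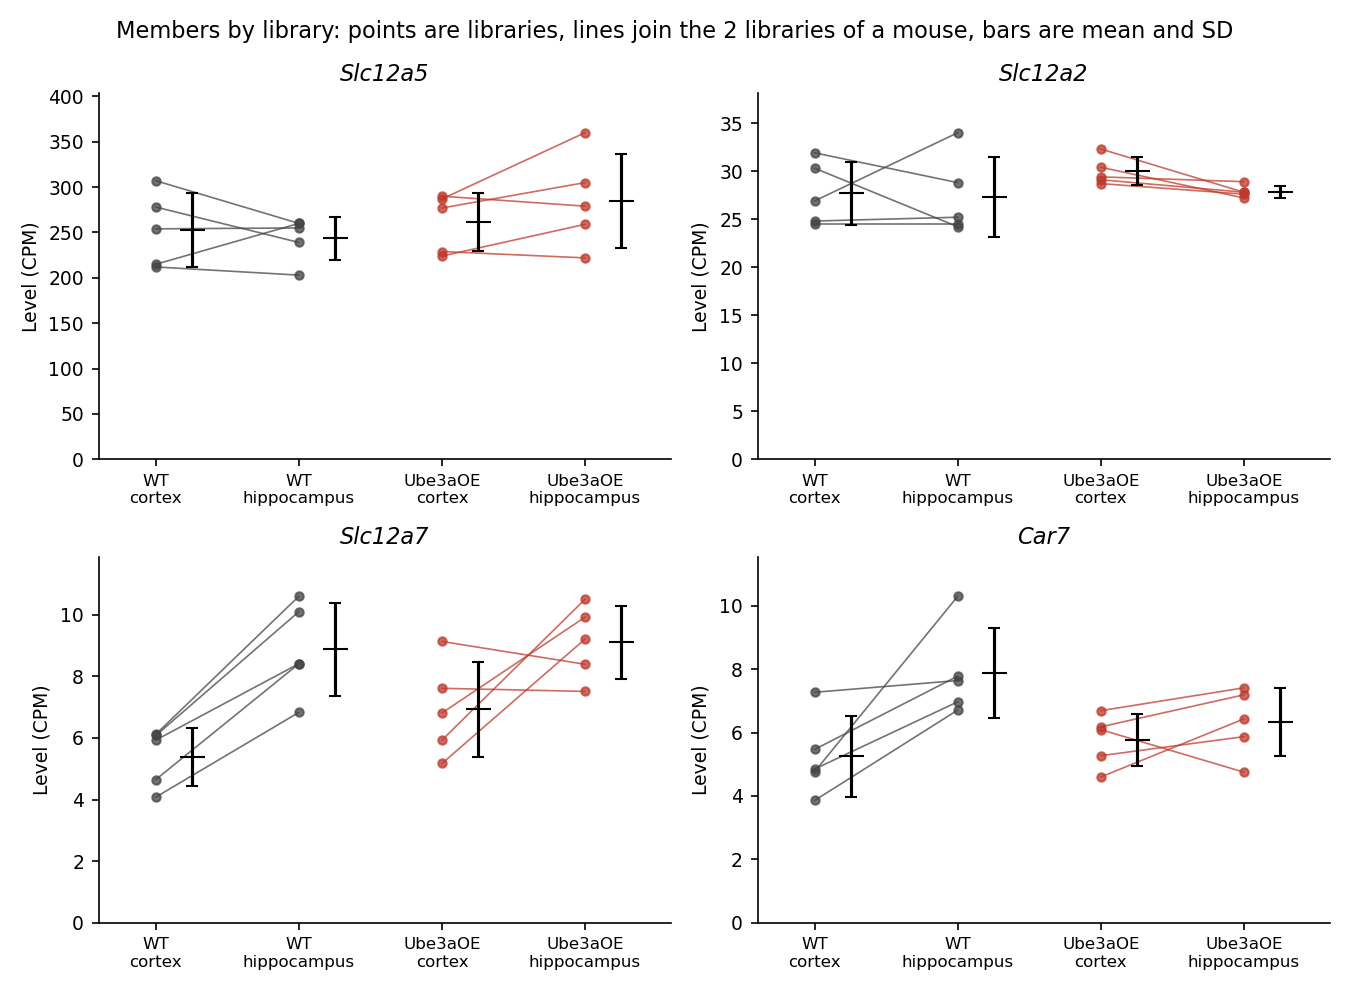
Levels (CPM, linear axes from 0) of Slc12a5, Slc12a2, Slc12a7 and Car7 in each library, with a line joining the cortex and hippocampus of each mouse and black bars for the mean and SD of 5 mice. Slc12a7 and Car7 lines rise from cortex to hippocampus in 5 of 5 WT mice, while Slc12a5 and Slc12a2 lines run in either direction there.

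Divided by exon length, Slc12a5 stood at 34.5 ± 4.68 CPM per kb in cortex and 35.5 ± 5.87 in hippocampus (SD, n = 10). Slc12a2 followed with 2.64 ± 0.248 in cortex and 2.53 ± 0.257 in hippocampus. Car7 reached 1.51 ± 0.288 and 1.95 ± 0.395, and Slc12a7 was lowest with 0.486 ± 0.115 and 0.710 ± 0.102 CPM per kb. The lengths, over the exons of all isoforms together, were 7.45 kb (Slc12a5), 10.9 kb (Slc12a2), 3.64 kb (Car7) and 12.7 kb (Slc12a7). The last place of Slc12a7 rests on them. In CPM its mean lay above that of Car7 in each group, from 5.37 against 5.24 in WT cortex to 9.11 against 6.33 in Ube3aOE hippocampus. Per length, the order Slc12a5, Slc12a2, Car7, Slc12a7 held in 20 of 20 libraries for the first step and the last, and in 19 of 20 for Slc12a2 over Car7. Those middle neighbours overlapped across libraries, since the lowest Slc12a2 was 2.22 and the highest Car7 2.82 CPM per kb. Among other chloride cotransporters, Slc12a4 (KCC1) stood at 5.33 and 5.93 CPM per kb in cortex and hippocampus. The renal cotransporters Slc12a1 (NKCC2) and Slc12a3 (NCC) had at most 5 counts in any library.

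The Slc12a5 to Slc12a2 ratio was computed within each library as counts per exon length, which frees it from scaling between libraries. In bulk tissue it is taken over all cell types and is not a value of neurons alone. In WT cortex it was 14.1, 11.7, 10.2, 15.0 and 16.6 in mice 1 to 5, with a mean of 13.5 ± 2.56 (SD, n = 5). In WT hippocampus it was 13.2, 11.2, 12.3, 14.9 and 14.3, a mean of 13.2 ± 1.48 (SD, n = 5). The WT hippocampus values lay inside the range of the WT cortex values. In Ube3aOE cortex the ratio was 14.0, 11.4, 10.4, 13.9 and 14.3 in mice 6 to 10, a mean of 12.8 ± 1.76 (SD, n = 5). In Ube3aOE hippocampus it was 15.0, 13.8, 11.7, 16.1 and 18.2, a mean of 15.0 ± 2.44 (SD, n = 5). Every library thus held at least 10.2 times as much Slc12a5 as Slc12a2 per length, and the 4 groups overlapped. As plain counts the mean ratio was lower, 9.22 in WT cortex, 8.99 in WT hippocampus, 8.73 in Ube3aOE cortex and 10.2 in Ube3aOE hippocampus. The division by length multiplies every library by the same factor, so log2 differences between groups do not depend on it.

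The ratio was compared by 4 two-sided exact permutation tests, adjusted together by Benjamini-Hochberg, and none passed. Hippocampus exceeded cortex by 0.10 on the log2 scale when the regions were swapped within mice (95% interval -0.03 to 0.23, exact p = 0.133, adjusted 0.266). Ube3aOE exceeded WT by 0.17 in hippocampus (interval -0.13 to 0.47, exact p = 0.230, adjusted 0.307). In cortex the difference was -0.07 (interval -0.43 to 0.29, exact p = 0.643). The smallest p of the 4 tests was that of the interaction, the difference between the genotypes in the regional step. The hippocampus-minus-cortex log2 ratio was -0.09, -0.06, 0.27, -0.01 and -0.22 in WT mice 1 to 5. In Ube3aOE mice 6 to 10 it was 0.10, 0.27, 0.17, 0.21 and 0.35. Thus 5 of 5 Ube3aOE mice and 1 of 5 WT mice had the higher ratio in hippocampus, and WT mouse 3 lay at the level of Ube3aOE mice. The interaction was 0.24 (SE 0.09, interval 0.03 to 0.45) with an exact permutation p = 0.0317, which became 0.127 after adjustment and so failed the correction. Leaving out WT mouse 3 gave 0.314 (exact p = 0.00794, the smallest that the remaining mice allow, adjusted 0.0317). Since mouse 3 is the only WT mouse with the higher ratio in hippocampus, this omission had to raise the interaction and lends it no support. Leaving out Ube3aOE mouse 10, which had the largest step, gave 0.209 (exact p = 0.0714, adjusted 0.286). Without WT mice 3 and 5, whose sex-linked genes go against the labelled sex, the interaction was 0.274 (exact p = 0.0179, adjusted 0.0714). That omission also takes out mouse 3, and its exact p is likewise the smallest that the remaining mice allow.

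**Figure D2:**
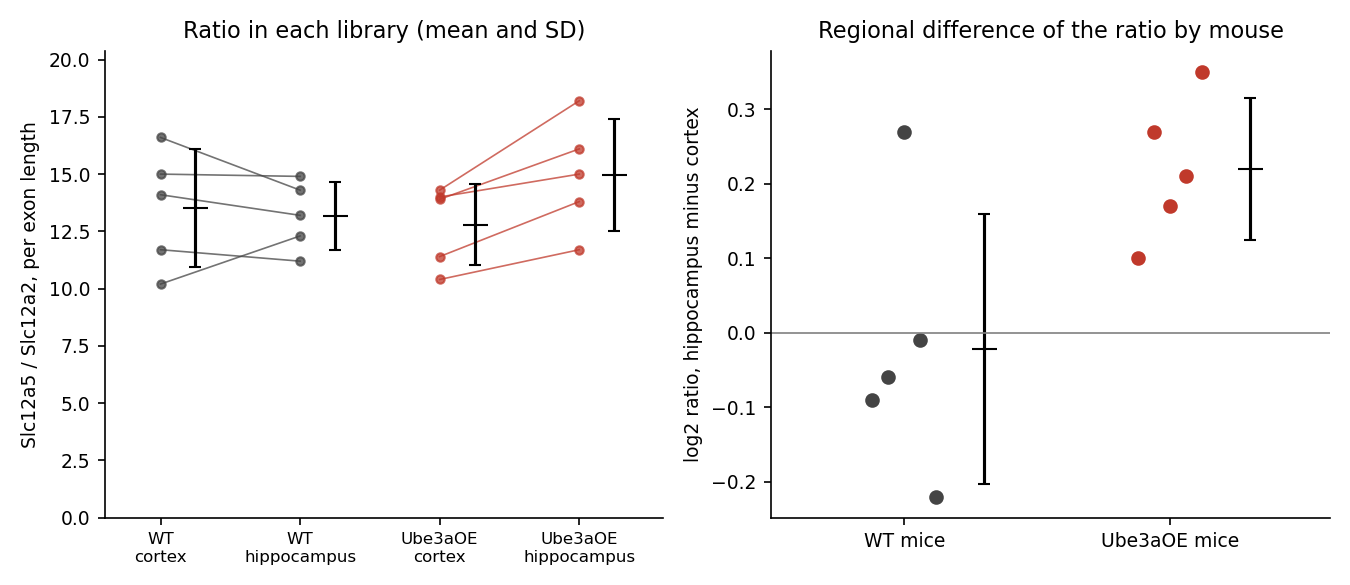
Left, the Slc12a5 to Slc12a2 ratio per exon length in each library, with lines joining the libraries of a mouse and bars for mean and SD (n = 5). Right, the log2 ratio of hippocampus minus that of cortex in each mouse, which lies between 0.10 and 0.35 in Ube3aOE mice and between -0.22 and 0.27 in WT mice.

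Slc12a7 was higher in hippocampus than in cortex. In WT cortex it measured 5.93, 4.08, 6.12, 4.65 and 6.08 CPM in mice 1 to 5, and in WT hippocampus 8.41, 6.83, 10.6, 8.41 and 10.1 CPM. All 5 WT hippocampus libraries lay above all 5 WT cortex libraries, a separation found in 25% of all genes tested. In Ube3aOE cortex it measured 5.93, 6.81, 9.13, 7.61 and 5.17 CPM in mice 6 to 10, and in Ube3aOE hippocampus 10.5, 9.92, 8.39, 7.51 and 9.21 CPM. There the groups overlapped, since the cortex of mice 8 and 9 read above their own hippocampus, and 8 of 10 mice in all had the higher value in hippocampus. Over both genotypes Slc12a7 was 1.47-fold higher in hippocampus (95% interval 1.25 to 1.73, log2 fold change 0.56, SE 0.11, edgeR adjusted p = 0.000279). Within WT mice the log2 fold change was 0.72 (SE 0.16, adjusted p = 0.00122). Within Ube3aOE mice it was 0.39 (SE 0.16, adjusted p = 0.0570) and did not pass, but the fit with the mouse as a block gave 0.41 with adjusted p = 0.0368. The difference between the genotypes in this regional step, -0.33 (SE 0.22), had an adjusted p of 0.996 and is not shown. Of the 4 genes, Slc12a7 and Car7 were called higher in hippocampus and none lower, in a comparison that called 50.7% of 15661 genes, 26.2% of them higher and 24.5% lower. Within WT mice 19.5% of genes were called higher in hippocampus and within Ube3aOE mice 17.5%. In bulk tissue, fewer cells of a type and less RNA per cell cannot be told apart.

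A promoter window of Slc12a7 is shown because it carries the same E-box as the second Slc12a5 start. RefSeq gives overlapping windows for 2 starts, of which the first, chr13:73763410-73763709 on the plus strand, has CACGTG beginning 1 base before its start. Both windows lie inside the annotated gene, downstream of its first base at 73733094, and no window at that end was searched.
Slc12a7 window 1: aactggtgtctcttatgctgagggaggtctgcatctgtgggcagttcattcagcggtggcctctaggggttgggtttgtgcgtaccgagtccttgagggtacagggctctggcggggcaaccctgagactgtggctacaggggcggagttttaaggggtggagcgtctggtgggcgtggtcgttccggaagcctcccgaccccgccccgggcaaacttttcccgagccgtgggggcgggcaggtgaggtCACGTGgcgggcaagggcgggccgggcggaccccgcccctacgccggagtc
The 3 windows of Car7 hold no CACGTG. Usf1 and Usf2, which encode the factors that bind this motif, ranged over the 20 libraries from 58.8 to 84.1 CPM and from 42.9 to 58.4 CPM, and neither passed the test between the regions (adjusted p = 0.179 and 0.0688 in edgeR).

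Some libraries stood apart in markers of the other region. The summed level of 7 hippocampus markers (among them Prox1, Zbtb20 and Fibcd1) was 310 CPM in the cortex of mouse 8 and 274 CPM in that of mouse 9, against 117 to 156 CPM in the other 8 cortex libraries. These are the cortex libraries with the highest Slc12a7, and the only ones that read above the hippocampus of the same mouse. The summed level of 7 neocortex markers (among them Cux2 and Rorb) was 380 CPM in the hippocampus of WT mouse 2, against 162 to 254 CPM in the other 9, and that library had the lowest hippocampal Slc12a7. The cortex of mouse 2 also had the lowest cortical Slc12a7 (4.08 CPM), with 117 CPM of hippocampus markers and 630 CPM of neocortex markers, and its hippocampus still read above its cortex. Of the hippocampus list 6 of 7 genes were called higher in hippocampus, and of the neocortex list 4 of 7 were lower and 1 higher. Without mice 2, 8 and 9 the regional log2 fold change of Slc12a7 was 0.72 over both genotypes, 0.72 in WT mice and 0.73 in Ube3aOE mice, and the interaction was 0.01. Without mouse 8 alone the Ube3aOE value was 0.53 (adjusted p = 0.0184), and without mouse 9 alone it was 0.49 (adjusted p = 0.0397). These omissions were chosen after the markers were seen. Since mice 8 and 9 are also the 2 with more Slc12a7 in cortex, leaving them out had to raise the Ube3aOE value, and with it the interaction. The omissions lend no support to either value.

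**Figure D3:**
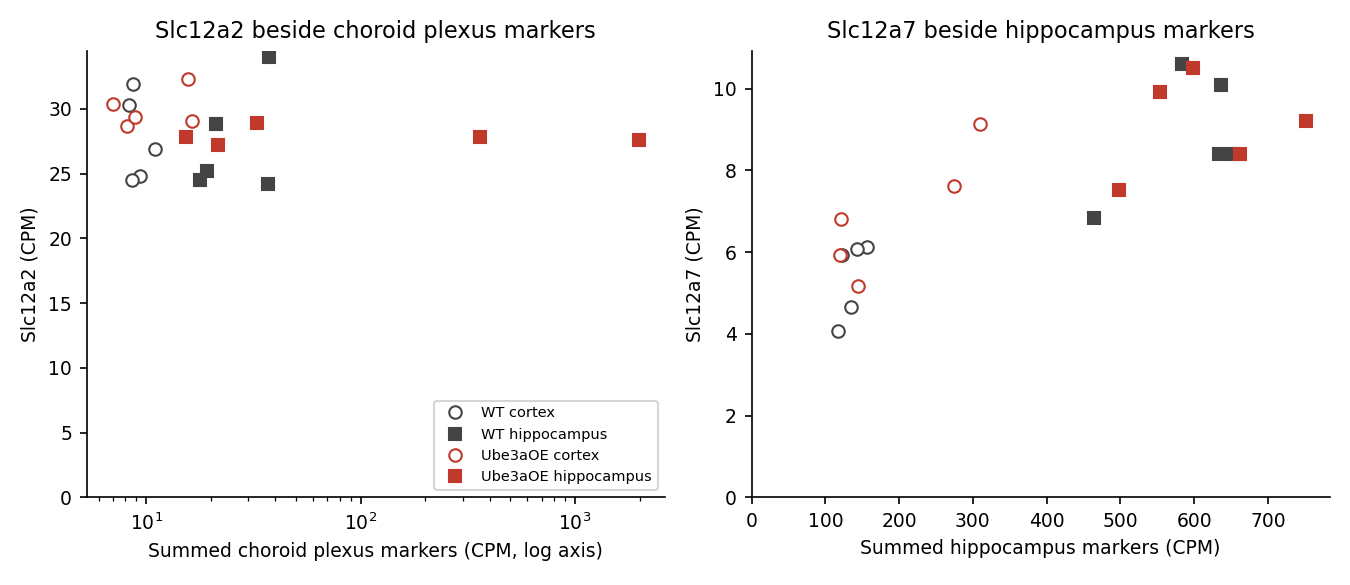
Left, Slc12a2 (CPM) against the summed level of 12 choroid plexus markers (CPM, log axis), and right, Slc12a7 (CPM) against the summed level of 7 hippocampus markers (CPM), with 1 point per library, open circles for cortex, filled squares for hippocampus, grey for WT and red for Ube3aOE. The 2 red squares at 360 and 1980 CPM of choroid plexus markers have Slc12a2 at 27.8 and 27.6 CPM, and the 2 red circles at 274 and 310 CPM of hippocampus markers have the highest cortical Slc12a7.

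Choroid plexus epithelium is known for high NKCC1, so its markers were set beside Slc12a2. Of 12 listed markers 8 could be tested, 5 were called higher in hippocampus and none lower. Within WT mice 3 were called higher and 1 lower. The summed level of the 12 was 7.00 to 16.4 CPM in cortex and 15.4 to 37.3 CPM in 8 hippocampus libraries, but 1980 CPM in that of mouse 7 and 360 CPM in that of mouse 9, both Ube3aOE. Ttr, the defining transcript, reached 1900 CPM in hippocampus and at most 6.64 CPM in cortex, with Folr1 up to 13.8 and Kl up to 8.47 CPM. Slc12a2 in the libraries of mice 7 and 9 was 27.6 and 27.8 CPM, inside the range of the other hippocampus libraries. Without these mice the regional log2 fold change of Slc12a2 was -0.09 (edgeR adjusted p = 0.417), and the interaction of the ratio was 0.23 (exact permutation p = 0.107, adjusted 0.429).

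Car7 was also higher in hippocampus, most clearly in WT mice. WT cortex gave 7.27, 3.86, 5.47, 4.85 and 4.77 CPM in mice 1 to 5, and WT hippocampus 7.64, 6.71, 7.78, 6.97 and 10.3 CPM. Ube3aOE cortex gave 6.18, 5.27, 4.60, 6.09 and 6.69 CPM in mice 6 to 10, and Ube3aOE hippocampus 7.19, 5.87, 6.43, 4.75 and 7.41 CPM. The hippocampus exceeded the cortex in 9 of 10 mice, all but mouse 9, although the groups overlapped in each genotype. Over both genotypes the fold was 1.28 (95% interval 1.09 to 1.52, log2 fold change 0.36, SE 0.12, edgeR adjusted p = 0.0131). Within WT mice the log2 fold change was 0.58 (SE 0.16, adjusted p = 0.00786), and within Ube3aOE mice it was 0.14 (SE 0.16, adjusted p = 0.564). The test of the difference between these values gave -0.45 (SE 0.23, edgeR adjusted p = 0.996), so a difference between the genotypes is not shown. Counts per library ran from 52 to 177, with a counting error of 8.80% to 11.5%. The call rested partly on WT mouse 5, whose hippocampus had the highest value of all: without it the regional log2 fold change was 0.28 (adjusted p = 0.0604), and 0.43 (adjusted p = 0.0751) within WT mice. Without WT mice 3 and 5, whose labelled sex does not match their sex-linked genes, it was 0.27 (adjusted p = 0.120). That omission also takes out mouse 5, and without mouse 3 alone the value was 0.36 (edgeR adjusted p = 0.0273).

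Genotype left all 4 genes without a call. In hippocampus, Slc12a5 was higher in Ube3aOE than in WT mice by a log2 value of 0.23 (SE 0.12, 95% interval -0.03 to 0.48, edgeR adjusted p = 0.674), and without mouse 10 by 0.13. Car7 differed by -0.31 (SE 0.15, interval -0.64 to 0.01, adjusted p = 0.665), and by -0.20 without WT mouse 5. Slc12a2 and Slc12a7 differed by 0.03 and 0.04, with intervals from -0.17 to 0.23 and from -0.25 to 0.33. In cortex, Slc12a7 had the largest difference, 0.37 (SE 0.17, interval 0.00 to 0.73, adjusted p = 0.960), which fell to 0.24 without mouse 8 and to 0.07 without mice 2, 8 and 9. Mice 8 and 9 held the highest Ube3aOE values there and mouse 2 the lowest WT value. Leaving them out therefore had to lower the difference, and its cause was not tested. The omissions named for hippocampus likewise took out the highest value of a group. Slc12a2, Slc12a5 and Car7 differed in cortex by 0.12, 0.05 and 0.13 (adjusted p = 0.960, 0.989 and 0.976). The groups overlapped for each gene in each region, where separated groups were found for 1.13% of genes in hippocampus and 0.702% in cortex. The same test called 0.00657% of 15220 genes in hippocampus and 0.00669% of 14947 in cortex, which was Ube3a alone in each, with log2 fold changes of 1.33 and 1.31. An unadjusted p under 0.05 was reached by 7.21% of genes in hippocampus and none of the 4, and by 4.44% in cortex and Slc12a7 of the 4. The interaction of genotype and region called 0% of genes by edgeR and none by DESeq2, with 3.82% at an unadjusted p under 0.05 and none of the 4 in edgeR. That fit does not pair the libraries of a mouse. With the mouse as a block, Car7 had -0.46 (edgeR unadjusted p = 0.0454, adjusted p = 0.797).

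**Figure D4:**
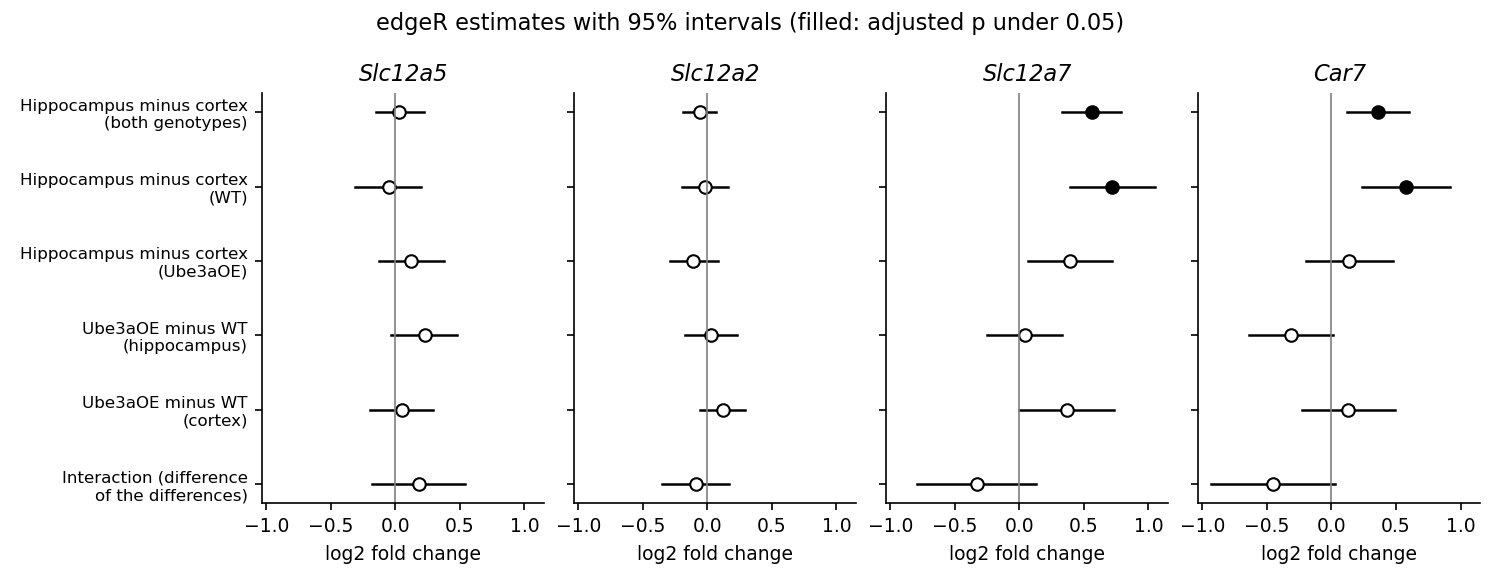
Log2 fold changes of the 4 genes with 95% intervals in the 6 comparisons, with filled points where the edgeR adjusted p is under 0.05. Only the regional estimates of Slc12a7 and Car7, over both genotypes and in WT mice, are filled, and the genotype intervals include 0, apart from that of Slc12a7 in cortex, whose lower bound is 0.00.

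Genes around the cotransporters were read from 7 lists with 59 genes, of which 54 could be tested between the regions. In hippocampus 17 were called higher and 12 lower, and 25 did not pass. That is 53.7% called, near the 50.7% of all genes, with a median log2 fold change of 0.03 beside 0.00 for all genes. Of the other cation-chloride cotransporters 4 of 6 were tested, none was higher and 1 was lower, with a median of 0.10. WNK kinases act through the kinases SPAK and OSR1, which phosphorylate NKCC1 and KCC2 and so set their activity. Of 8 genes of these kinases and their adaptors none was higher and 3 were lower in hippocampus, with a median of -0.13. The 3 were Oxsr1 (-0.22, SE 0.05), Cab39 (-0.15, SE 0.03) and Wnk2 (-0.14, SE 0.06). Oxsr1 encodes the kinase OSR1 and Cab39 its adaptor MO25. Stk39, which encodes SPAK, differed by 0.09 (SE 0.06, adjusted p = 0.230).

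The carbonic anhydrases held the listed genes with the largest regional fold changes in either direction. Of 15 genes beside Car7, 12 were tested, 5 were higher and 3 lower in hippocampus, with a median of 0.01. Car12, a membrane-bound form, rose from 0.669 CPM in WT cortex to 19.6 in WT hippocampus and from 2.15 to 17.7 CPM in Ube3aOE mice (log2 fold change 3.93, SE 0.29, edgeR adjusted p = 4.60e-09). Car4, which faces the extracellular space, was higher by 0.89 (SE 0.10). Car8 was lower by a log2 fold change of -0.86 (SE 0.13) and Car11 by one of -0.35 (SE 0.07), and both encode related proteins without enzyme activity. Of 9 bicarbonate and proton transporters 3 were higher and 1 lower (median 0.05): Slc4a7, a sodium-bicarbonate cotransporter, rose by 0.27 (SE 0.07), whereas the anion exchanger Slc4a3 had -0.28 (SE 0.06). Of 7 CLC chloride channels and exchangers 2 were higher and 1 lower (median 0.02), namely Clcn5 (0.35, SE 0.11), Clcn3 (0.21, SE 0.04) and Clcn1 (-0.73, SE 0.24).

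KCC2 is held at the membrane by partner proteins. Of 8 partner genes 5 were higher and 2 lower in hippocampus (median 0.19). Grik2, a kainate receptor subunit, was higher by 0.79 (SE 0.09, edgeR adjusted p = 8.65e-07) and Pacsin1 by 0.21 (SE 0.07). Neto2, an auxiliary subunit that binds KCC2, was lower with -0.41 (SE 0.08), and Arhgef7 with -0.13 (SE 0.03). Of 6 genes that regulate Slc12a5 transcription 2 were higher and 1 lower (median 0.05). Bdnf rose from 5.13 to 26.4 CPM in WT mice and from 7.28 to 21.9 CPM in Ube3aOE mice (log2 fold change 1.97, SE 0.20). Its receptor gene Ntrk2 was lower with -0.37 (SE 0.05), and the repressor gene Rest higher with 0.35 (SE 0.09). Egr4, an activator, did not pass with 0.17 (SE 0.16). Slc12a5 itself differed by 0.03 between these regions. No listed gene was called for genotype in hippocampus (of 50 tested), in cortex (of 51) or for the interaction (of 54), by edgeR or by DESeq2, and 7, 2 and 4 of them had an unadjusted p under 0.05.

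**Figure D5:**
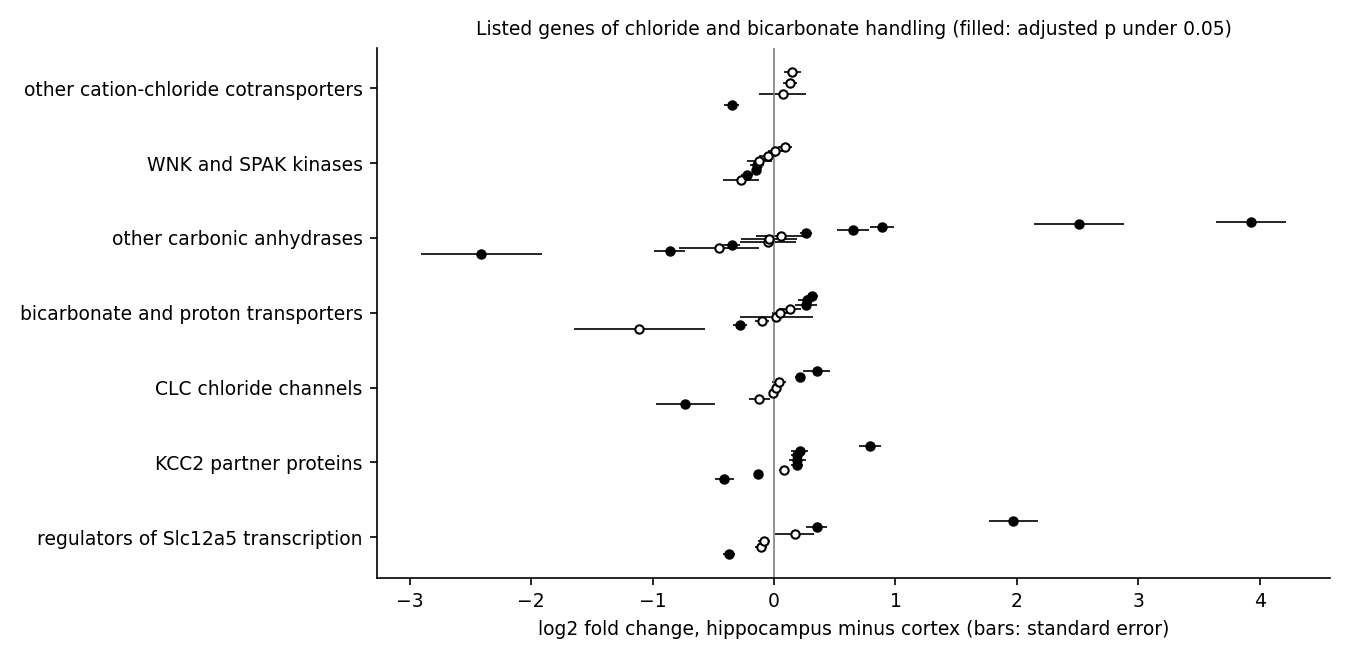
Regional log2 fold changes (hippocampus minus cortex, bars for the standard error) of the tested genes of 7 lists around chloride and bicarbonate handling, with filled points where the edgeR adjusted p is under 0.05. Points spread to both sides of 0, from Car13 at -2.41 to Car12 at 3.93.

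Across the 20 libraries, 2 from each mouse, the genes with the profiles most like each member were found among 11600 genes by Pearson's r of log2 CPM, as a description. For Slc12a7 they were Fkbp10 (r = 0.960), Plat (0.942), Hbp1 (0.934) and Cxcr4 (0.932), and after the group means were taken out r was 0.899, 0.856, 0.857 and 0.871. For Slc12a5 they included Abca3 (0.857), Nedd4 (0.840) and Sv2a (0.814), with 0.841, 0.876 and 0.796 within groups. For Slc12a2 they were Tpr (0.812), Chl1 (0.800), Trp53bp1 (0.787) and Fat1 (0.784). For Car7 they were Zfp385b (0.862), Ctsb (0.851), Ghitm (0.847) and Mcam (0.835). Among the members, Slc12a7 and Car7 had the highest r over all libraries (0.581, within groups 0.296), and Slc12a5 and Car7 had the highest within groups (0.368, over all libraries 0.184). Slc12a5 and Slc12a2 had r = 0.220 (within groups 0.204).

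Neuronal and glial markers moved with region beside these genes. The same comparison called 26.2% of all genes tested higher in hippocampus and 24.5% lower. Of 8 neuronal markers 5 were lower in hippocampus and 2 higher, Nefl and Nefm, and their summed level was 7270 to 8870 CPM there against 8520 to 9670 CPM in cortex. Syt1 had -0.40 and Rbfox3 -0.51, while Snap25 (0.07) did not pass. Of 6 inhibitory neuron markers 2 were higher and none lower, Gad1 with 0.62 and Gad2 with 0.79. The other 4 did not pass, and 3 of the 6 had a positive estimate, with a median of 0.05. The summed level of the 6 was 314 to 438 CPM in cortex. It was 761 CPM in the hippocampus of mouse 9, against 317 to 474 CPM in the other hippocampus libraries. The library with 761 CPM also had the lowest hippocampal Car7 (4.75 CPM). Of 7 astrocyte markers 6 were higher, with summed levels of 1930 to 2590 CPM in hippocampus and 1130 to 1880 CPM in cortex. Of the remaining lists, 4 of 8 markers of the oligodendrocyte lineage, 4 of 5 of microglia, 5 of 5 of ependyma, 5 of 5 of dividing cells and 4 of 5 of Cajal-Retzius cells were higher in hippocampus with none lower. Of 6 immature neuron markers 3 were higher and 1 lower, and none of 6 endothelial or 5 blood markers passed in edgeR or had an unadjusted p under 0.05. The part of these differences in the regional values of Slc12a7, Car7 and the Slc12a5 to Slc12a2 ratio was not tested.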

How the data were processed

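The authors deposited raw counts per gene, 1 file per library, from stranded mRNA libraries. Their processing notes name HISAT2 2.1.0 and HTSeq 0.11.2 with GRCm38. The strand setting and annotation are not given in the sources used here. Of the reads, 69.7% to 81.2% were counted on genes, and the lines for reads not aligned (2.74% to 8.66%), outside genes (4.46% to 7.12%) and aligned to several places (10.3% to 13.7%) were left out. GENCODE M21 held 47310 of 47729 identifiers (99.1%) and gave positions and exon lengths. Promoter windows came from RefSeq (GRCm38.p6), which had none for Slc12a2 in the table used.

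Groups came from the labels. Counts were fitted in R 4.3.3 with edgeR 4.0.16 (TMM, filterByExpr, robust quasi-likelihood F test, Benjamini-Hochberg over all genes tested, threshold 0.05), without covariates: genotypes in the 10 libraries of a tissue, regions and interaction over all 20. The ratio (pseudocount 0.5) was compared by two-sided exact permutation. Alternatives were DESeq2 1.42.0, other scalings, no filter, the labelled sex, all libraries together, the mouse as a block and mice left out. Scripts were tested on simulated data. The biological coefficient of variation was 13.7%. Same-numbered libraries come from 1 animal, and their deviations from group means correlated with a median of 0.215 (-0.0366 to 0.248, above 0.1 in 9 of 10 mice). WT mice 3 and 5 went against their labelled sex, and no batch is labelled. The members, the lists and the tests were chosen with earlier results of these data known. Named were the 4 members, Ube3a, list genes called for genotype, the 2 listed genes with the largest called change in each direction between regions (mean CPM of at least 1), the first 3 markers of a list and the 4 genes most like each member (mean CPM of at least 5, prior count 2). Other genes (Stk39, Egr4, Usf1, Usf2, Wnk2, Slc12a1, Slc12a3, Slc12a4, Nefl, Nefm and Car13) were named after their values were seen. Some genes that this rule names are not reported here.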

Additional observations from a re-analysis of the deposited data

How the results depend on the processing

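The regional call of Slc12a7 over both genotypes and in WT mice held in every alternative run. With the mouse as a replicate block, Slc12a7 in Ube3aOE mice passed (0.4053), as it did with DESeq2 (0.3891) and without mice 2, 8 and 9 (0.726, an omission that raises it by construction), and omission of single mice gave 0.279 to 0.534. The block changed no other call of a member. The ratio between regions without pairing was 0.0985 (exact permutation p = 0.338). Omission of single mice gave 0.277 to 0.438 for Car7 between regions, and 0.427 to 0.740 in WT mice. Without the mice whose sex-linked genes go against the label, Car7 lost its call (0.2732, in WT mice 0.4111), as it did without mouse 5 alone. Without both mice, Slc12a2 by genotype in hippocampus turned to -0.0718, and Slc12a2 between regions in WT mice to 0.0707. With library totals alone that last value was 0.0454 and that of Slc12a5 0.0128. Without mice 2, 8 and 9 the interactions of Slc12a2 (0.0363) and Slc12a7 (0.0062) changed sign, and that of Slc12a7 is raised by construction. With each mouse left out, differences near 0 crossed it: Slc12a2 by genotype in hippocampus (-0.0111 to 0.124), between regions in WT mice (-0.120 to 0.0459) and in the interaction (-0.160 to 0.0143), Slc12a5 in cortex (-0.0103 to 0.126) and between regions (-0.0062 to 0.0619), Slc12a7 in hippocampus (-0.0369 to 0.112) and the ratio in cortex (-0.164 to 0.0108). The interaction of the ratio stayed between 0.194 and 0.314. DESeq2 called 4 genes for genotype in cortex, and the labelled sex as a covariate gave 2 in hippocampus. The cause of these changes was not tested in any of the alternatives. The 95% intervals give the sizes of genotype difference that the 5 mice a group leave possible, and no detection limit was computed.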

Other observations

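Among the listed genes of chloride and bicarbonate handling, 7 of 50 had an unadjusted p under 0.05 for genotype in hippocampus, and each was higher in Ube3aOE mice: Wnk2 (log2 fold change 0.23), Car10 (0.97), Car14 (1.43), Slc4a4 (0.25), Clcn6 (0.15), Grik2 (0.14) and Gabbr1 (0.20). None passed the adjustment over all genes (edgeR adjusted p = 0.665 for each), and 7.21% of all genes reached the same unadjusted level. In cortex Car12 (1.67) was among the 2 that did so. In the interaction of genotype and region it was Car9 (-2.22), Car10 (1.02), Car12 (-1.81) and Slc4a5 (3.41), each with an adjusted p of 0.996. Several of these large values belong to genes near the floor. The mean level was 0.912 CPM for Car9 (SE 0.78), 0.907 CPM for Slc4a5 (SE 1.06) and 1.21 CPM for Car14 (SE 0.53 in hippocampus). Slc4a5 is also a marker of choroid plexus, whose summed markers were 1980 and 360 CPM in the hippocampus of Ube3aOE mice 7 and 9, and Car12 is the listed gene with the largest rise in hippocampus (3.93). The summed hippocampus markers were 310 and 274 CPM in the cortex of Ube3aOE mice 8 and 9 against 117 to 156 CPM in the other cortex libraries. The part of these markers in the values was not tested. These genes were named after their values were seen.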
